A study of Mus musculus with 2 samples.

Results

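Collagens and the enzymes that modify them were followed in LKS+ hematopoietic stem and progenitor cells (HSPCs) that had been co-cultured with spleen (SP)-derived EVs. The genes were chosen by name: every gene whose symbol has the form of a collagen chain, and Plod1, Plod2, Plod3, P4ha3, Serpinh1, Leprel1 (now P3h2), Lox, Loxl1, Loxl2, Bmp1, Pcolce and Adamts2. That choice was made after the collagen pathway genes were seen to have low ratios on these same arrays, so the ratios between the conditions are given as a description and support nothing. The list held 56 genes, 44 collagens and 12 modifying genes, of the 22911 genes that the arrays name, and 87 of the 56604 probes. On these arrays 36 of the 56 genes did not give a usable pair of signals, and most of the account concerns the other 20.

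Gene expression was measured on 2 arrays, 1 for each condition. BM of WT mice gave LKS+ cells, which lack lineage markers and carry Kit and Sca-1, and these were propagated in a serum-free medium that in both conditions held SCF at 100 ng/ml, IL-6 at 10 ng/ml and IL-3 at 10 ng/ml. One culture (HSPC_CML) then received EVs from the SP of CML mice and the other (HSPC_Control) EVs from the SP of normal mice, each at 150 µg/ml and for 24 h. The CML mice were recipients of LKS+ cells infected with a retrovirus that carried BCR-ABL and GFP. The methods state that the CML donors of these EVs had been irradiated, which the labels do not mention, and they mention no irradiation of the control donors. Leukemia and irradiation of the donors therefore cannot be told apart. The methods call WT the young male mice they bought, of the BALB/c and the C57BL/6J strain, and do not say which strain these 2 cultures or their EV donors were, or how many mice an EV preparation pooled. RNA of the cells and RNA carried by the EVs cannot be told apart on the arrays, nor can fewer cells of a type and less RNA per cell. There was no replicate of either condition, so no p-value was computed, and all values describe these 2 cultures.

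A collagen is built from 3 chains that wind around each other, and the repeated glycine and the prolines of each chain make that triple helix possible. In the endoplasmic reticulum, prolyl and lysyl hydroxylases modify the chains and the chaperone Serpinh1 (Hsp47) binds the folded helix. After secretion, proteases such as Bmp1 and Adamts2 remove the end peptides, and lysyl oxidases cross-link the fibers. In BM, collagens belong mainly to the stroma, vessels and bone that surround HSPCs, and type IV and XVIII collagens are parts of basement membranes.

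The promoters of 4 of these genes are shown first, for a gene pair with a shared start region and for the lowest and highest ratio. Col4a1 and Col4a2 encode the chains of the most widespread type IV collagen and start 21 bases apart on opposite strands of chromosome 8, so that the regions around their starts overlap. Col9a2 had the lowest ratio of CML EVs over control EVs among the 20 genes, and Plod3 the highest. Each sequence is the RefSeq window of the mouse assembly GRCm38.p6 from 250 bases before to 50 bases after the gene start, 5′ to 3′ on the strand of the gene. In the first pair, capitals mark the 78 bases that both windows share, which are the reverse complement of each other. In each gene they cover the 50 bases after the start and a shorter stretch before it. In the Col9a2 window capitals mark the 3 matches to GGGCGG, the core of the GC box, on either strand. In the Plod3 window capitals mark the 1 match to CCAAT, which lies on the other strand.
Col4a1, chr8:11312777-11313076, minus strand: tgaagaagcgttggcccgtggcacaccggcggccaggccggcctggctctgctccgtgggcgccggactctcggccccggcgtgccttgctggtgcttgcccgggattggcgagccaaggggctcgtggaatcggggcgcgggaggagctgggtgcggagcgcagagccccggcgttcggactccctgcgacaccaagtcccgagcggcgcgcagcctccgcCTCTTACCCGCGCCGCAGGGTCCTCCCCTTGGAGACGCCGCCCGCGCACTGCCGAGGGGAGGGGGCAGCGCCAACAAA
Col4a2, chr8:11312555-11312854, plus strand: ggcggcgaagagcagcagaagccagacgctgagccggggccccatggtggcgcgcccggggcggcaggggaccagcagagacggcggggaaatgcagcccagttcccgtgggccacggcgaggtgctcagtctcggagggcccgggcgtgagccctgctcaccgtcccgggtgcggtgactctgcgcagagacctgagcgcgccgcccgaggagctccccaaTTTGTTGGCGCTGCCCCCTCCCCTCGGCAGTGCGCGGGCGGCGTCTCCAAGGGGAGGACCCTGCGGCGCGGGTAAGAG
Col9a2, chr4:121039316-121039615, plus strand: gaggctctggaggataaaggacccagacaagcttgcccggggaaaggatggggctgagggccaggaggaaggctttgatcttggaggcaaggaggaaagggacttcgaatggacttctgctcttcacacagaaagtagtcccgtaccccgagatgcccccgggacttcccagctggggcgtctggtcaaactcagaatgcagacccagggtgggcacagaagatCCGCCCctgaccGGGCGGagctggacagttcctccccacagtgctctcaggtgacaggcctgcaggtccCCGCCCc
Plod3, chr5:136986769-136987068, plus strand: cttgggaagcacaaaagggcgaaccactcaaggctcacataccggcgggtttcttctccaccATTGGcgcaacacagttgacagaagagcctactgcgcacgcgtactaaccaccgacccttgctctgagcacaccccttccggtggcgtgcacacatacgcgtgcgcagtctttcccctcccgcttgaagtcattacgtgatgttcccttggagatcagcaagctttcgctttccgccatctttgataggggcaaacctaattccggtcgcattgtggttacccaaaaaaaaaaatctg

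The window table held 44 windows for 41 of the 56 genes, and both strands of each were searched for 4 motifs, whose matches may share bases at their ends. GGGCGG was found in 28 of the 44 windows (63.6%), against 35.7% of all 32851 mouse windows of the same length. Among the 16 windows of the listed genes above background on both arrays, 13 held it (81.2%), against 58.9% of the 13575 windows of all genes above background on both arrays. CCAAT was found in 14 of the 44 windows (31.8%) and in 37.4% of all windows, and TATAAA in 6 (13.6%) and in 13.6% of all windows. ACGTG, the core of the hypoxia response element, was found in 7 windows (15.9%) and in 19.6% of all windows. In the same 16 windows CCAAT was found in 7, TATAAA in 2 and ACGTG in 5, against 37.7%, 7.87% and 24.8% of the 13575 windows. These are matches of letters and not measured binding sites. The part that Col4a1 and Col4a2 share held 1 GGGCGG match and 0 CCAAT matches.

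A minority of the collagens passed as well above background in these cells. The scanner software marks a spot as well above background when it stands clear of the local background, and a probe was counted as such when over 50% of its spots were. Of the 87 probes, 24 (27.6%) were well above background on both arrays, against 59.5% of all named probes. The number was 3 with CML EVs only and 2 with control EVs only, and 58 probes (66.7%) were well above background on neither array. At the level of genes, 20 of 56 (35.7%) were well above background on both arrays, against 58.5% of all named genes, and 24 on at least 1, against 62% of all named genes. Split by kind, 11 of 44 collagens (25.0%) and 9 of 12 modifying genes (75%) were well above background on both arrays. With the software's less strict flag, for a signal positive and significant against background, 34 of the 56 genes (60.7%) passed on both arrays, against 69.0% of all named genes.

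**Figure D1:**
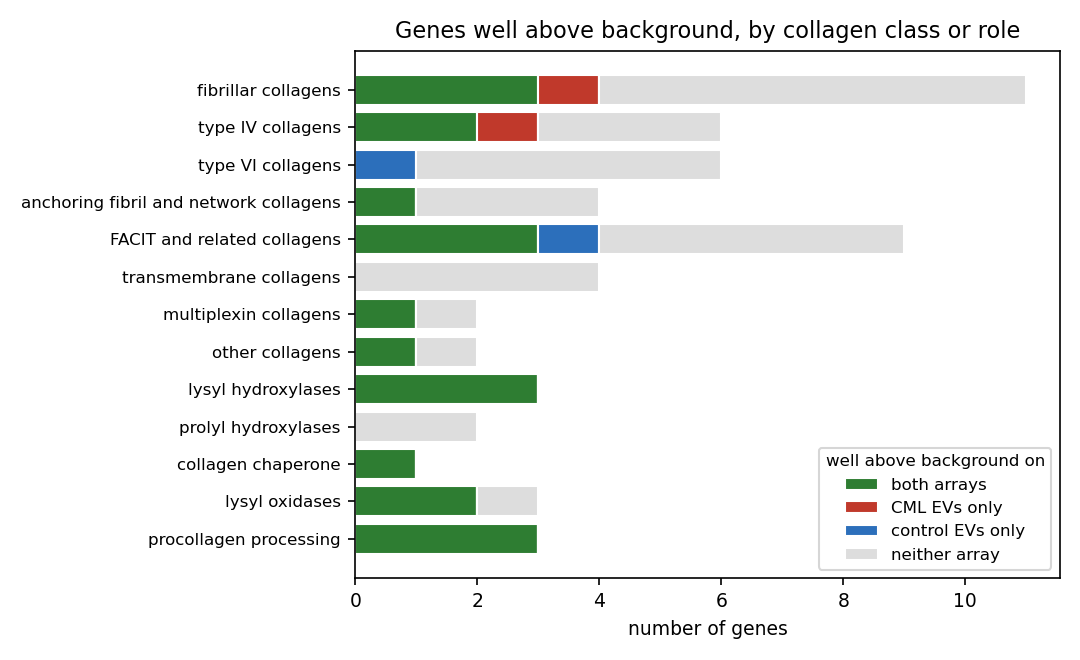
Number of genes in each collagen class or role, colored by where the gene passed as well above background: on both arrays, with CML EVs only, with control EVs only or on neither. The transmembrane collagens, the type VI collagens and the 2 listed prolyl hydroxylases had no gene above background on both arrays, while all 3 lysyl hydroxylases and all 3 genes of procollagen processing had.

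The genes well above background on neither array cover much of the family. Among the fibrillar collagens, which form the cross-striated fibers of tendon, bone and cartilage, they were Col1a1, Col2a1, Col3a1, Col5a2, Col11a1, Col24a1 and Col27a1. Of the basement membrane chains they were Col4a3, Col4a4 and Col4a6, and of type VI, the collagen of beaded filaments, Col6a1, Col6a2, Col6a4, Col6a5 and Col6a6. The network collagens Col8a1, Col8a2 and Col10a1 and the fibril-associated collagens Col9a1, Col9a3, Col12a1, Col14a1 and Col19a1 were also among them. All 4 transmembrane collagens (Col13a1, Col17a1, Col23a1 and Col25a1) were, and Col15a1, Col28a1, P4ha3, P3h2 and Loxl1 completed the 32. The 58 dim probes of the list had signals of 2.73 to 15.5 with CML EVs (median 3.36) and of 2.59 to 11.9 with control EVs (median 3.15), which give no level beyond not being well above background. Of 8 pairs of collagen genes that lie next to each other, both genes were dim in 6, while 29 of the 44 collagens were dim in any case. Col4a1 and Col4a2 were the pair with both genes above background on both arrays, and of Col4a5 and Col4a6 on chromosome X only Col4a5 passed, with CML EVs alone.

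Some probes lie on each array in 10 copies, and 283 of them that were well above background on both arrays give the spreads by signal further on. Of all probes in 10 copies, 4 belong to these genes, 2 to Pcolce and 2 to Col1a1, and they show the spread between spots of 1 array. Pcolce, which speeds the removal of the procollagen end peptide, had 1 probe (A_51_P371942) with every usable spot well above background. Its 9 spots with CML EVs had signals of 22.0 to 32.1 with a mean of 26.7 ± 3.54 (SD), and its 10 spots with control EVs 23.4 to 33.9 with a mean of 28.8 ± 3.78 (SD). The 2 ranges overlapped almost entirely, so the Pcolce difference was smaller than the spread between spots. The other Pcolce probe (A_55_P2020577) was dim, with 1 of 10 spots above background with CML EVs and 0 of 9 with control EVs. For Col1a1, a main chain of type I collagen, probe A_52_P525107 had 1 of 10 spots above background with CML EVs, at signals of 3.03 to 16.9, and 0 of 8 with control EVs, at 2.63 to 3.16. Probe A_55_P2118520 had 0 of 10 spots above background on either array, at signals of 2.93 to 8.92 with CML EVs and 2.70 to 6.62 with control EVs. Col1a1 is thus counted as not well above background in either culture.

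**Figure D2:**
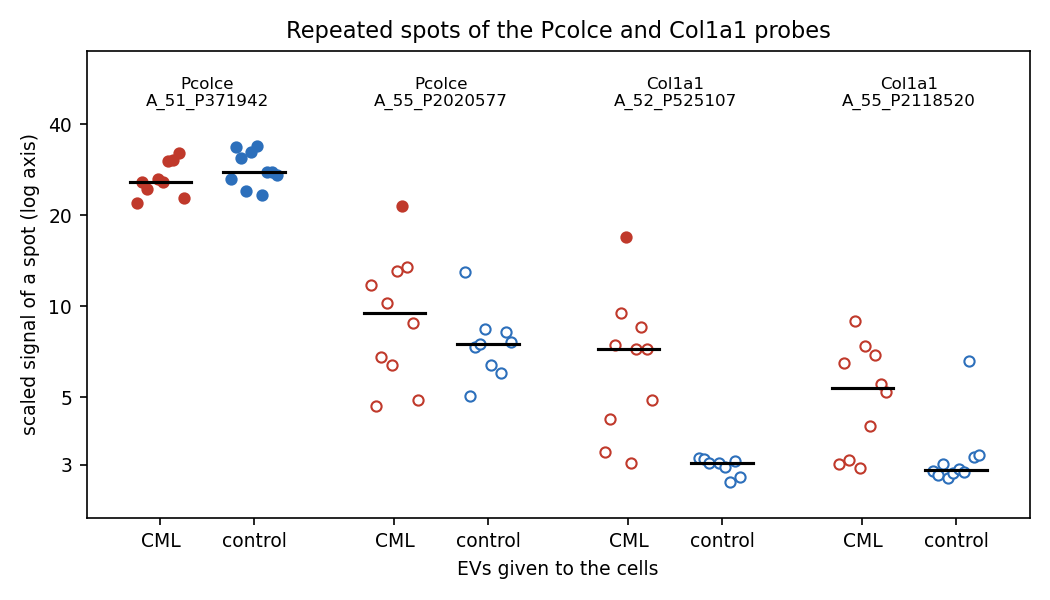
Signal of each repeated spot of the Pcolce and Col1a1 probes on a log axis, CML EVs left of control EVs, with the median as a bar. Filled points were well above background and open points were not. The brighter Pcolce probe overlaps between the conditions, and almost all Col1a1 spots are open.

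The fibrillar collagens that could be compared had ratios on both sides of 0. Col1a2, the other chain of type I collagen, had signals of 252 with CML EVs and 254 with control EVs, a log2 ratio of -0.02 whose sign turned under median scaling, quantile normalization, loess and normexp background correction. Col5a1, a chain of the type V collagen that starts fibril growth, had 171 with CML EVs and 156 with control EVs, a ratio of 0.13 (1.10-fold higher). Col11a2, a cartilage chain, had 24.4 with CML EVs and 41.9 with control EVs, a ratio of -0.78 (1.72-fold lower), though its other probe gave -0.28 and normexp correction -0.31. Col5a3 was well above background with CML EVs only, with 23.8 with CML EVs and 9.90 with control EVs, or 1.84-fold higher against a floor. Its other probe was dim on both arrays. For this fold and those of other genes above background on 1 array, a smaller dim signal was raised to the floor. The floor was the faintest signal that passed as well above background on its array, 13.6 with CML EVs and 12.9 with control EVs. Some probes that did not pass were brighter, such as a Loxl2 probe at 15.5 with CML EVs, so these folds are not lower bounds. Most ratios rest on a single spot per array, and their error was estimated by the scanner software from its own model of the spots. This error was 0.21 for Col1a2 and Col5a1 and 0.29 for Col11a2, so of the 3 ratios that of Col11a2 alone exceeded it. For the log2 ratio of the Col5a3 signals the error was 0.53.

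The basement membrane and multiplexin collagens above background on both arrays were lower with CML EVs. Col4a1 had signals of 112 with CML EVs and 156 with control EVs, a ratio of -0.48 ± 0.21 (software error, 1.39-fold lower). Col4a2, which starts beside it and overlaps it around the start, had 255 with CML EVs and 270 with control EVs, a ratio of -0.08 ± 0.21. Both genes of the pair were thus lower, but only the Col4a1 ratio exceeded its error. Col4a5, a chain of glomerular and skin basement membranes, was above background with CML EVs only, with 17.2 with CML EVs and 10.0 with control EVs. This was 1.33-fold higher against the floor, with a software error of the log2 ratio of 0.52, and its other probe was dim on both arrays. Col18a1, which is cut to release endostatin, had 909 with CML EVs and 1196 with control EVs, a ratio of -0.39 ± 0.20 (1.31-fold lower). Collagen VI, which binds cells to their matrix, was seen only as Col6a3, with 13.6 with CML EVs and 25.0 with control EVs. The CML EV signal was not well above background, and Col6a3 was 1.83-fold lower by these signals, with a software error of the log2 ratio of 0.43. Its other probe was dim on both arrays.

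The fibril-associated, anchoring and other collagens that passed on at least 1 array had lower signals with CML EVs. Col9a2, a cartilage chain, had signals of 27.0 with CML EVs and 63.6 with control EVs, a ratio of -1.23 ± 0.27 (2.35-fold lower), the lowest among the 20 genes, and -0.47 with normexp correction. Col16a1 had 82.5 with CML EVs and 105 with control EVs, a ratio of -0.35 ± 0.21 (1.27-fold lower), and Col20a1 had 67.0 with CML EVs and 80.2 with control EVs, a ratio of -0.26 ± 0.22 (1.20-fold lower). Col22a1 was above background with control EVs only, with 11.7 with CML EVs and 22.5 with control EVs, or 1.66-fold lower against the floor. The software error of its log2 ratio was 0.44, and its other probe was dim on both arrays. Col7a1, which anchors the epidermis, had 87.1 with CML EVs and 101 with control EVs, a ratio of -0.21 ± 0.22 (1.16-fold lower). Col26a1 had 24.3 with CML EVs and 30.0 with control EVs, a ratio of -0.30 ± 0.29 (1.23-fold lower).

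The modifying genes were more mixed. Of the lysyl hydroxylases, Plod1 had signals of 146 with CML EVs and 160 with control EVs, a ratio of -0.13 ± 0.21 (1.10-fold lower), and Plod2 had 172 with CML EVs and 204 with control EVs, a ratio of -0.25 ± 0.21 (1.19-fold lower). Plod3, which also adds glucose to galactosylated hydroxylysine, had 2946 with CML EVs and 2485 with control EVs, a ratio of 0.25 ± 0.20 (1.19-fold higher), and its other probe gave 0.17. The chaperone Serpinh1 had 34.1 with CML EVs and 47.1 with control EVs, a ratio of -0.47 ± 0.26 (1.38-fold lower), and of -0.12 with normexp correction. Of the lysyl oxidases, Lox had 89.7 with CML EVs and 83.0 with control EVs, a ratio of 0.11 ± 0.21 (1.08-fold higher), and Loxl2 had 112 with CML EVs and 173 with control EVs, a ratio of -0.63 ± 0.21 (1.55-fold lower), and of -0.39 with normexp correction. The dimmer probe of Lox was above background with CML EVs only, and that of Loxl2 on neither array.

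In procollagen processing, Bmp1 had signals of 189 with CML EVs and 262 with control EVs, a ratio of -0.47 ± 0.21 (1.39-fold lower), but its other 2 probes gave -0.15 and -0.02. Adamts2, which removes the amino-terminal end peptide, had 19.3 with CML EVs and 17.4 with control EVs, a ratio of 0.15 ± 0.39 (1.11-fold higher), within its error and of the other sign with normexp correction. Pcolce had 26.5 with CML EVs and 28.5 with control EVs, a ratio of -0.11 ± 0.30 (1.08-fold lower). For Pcolce this software error is that of a single spot per array. It does not allow for the averaging of 9 and 10 spots behind the ratio.

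**Figure D3:**
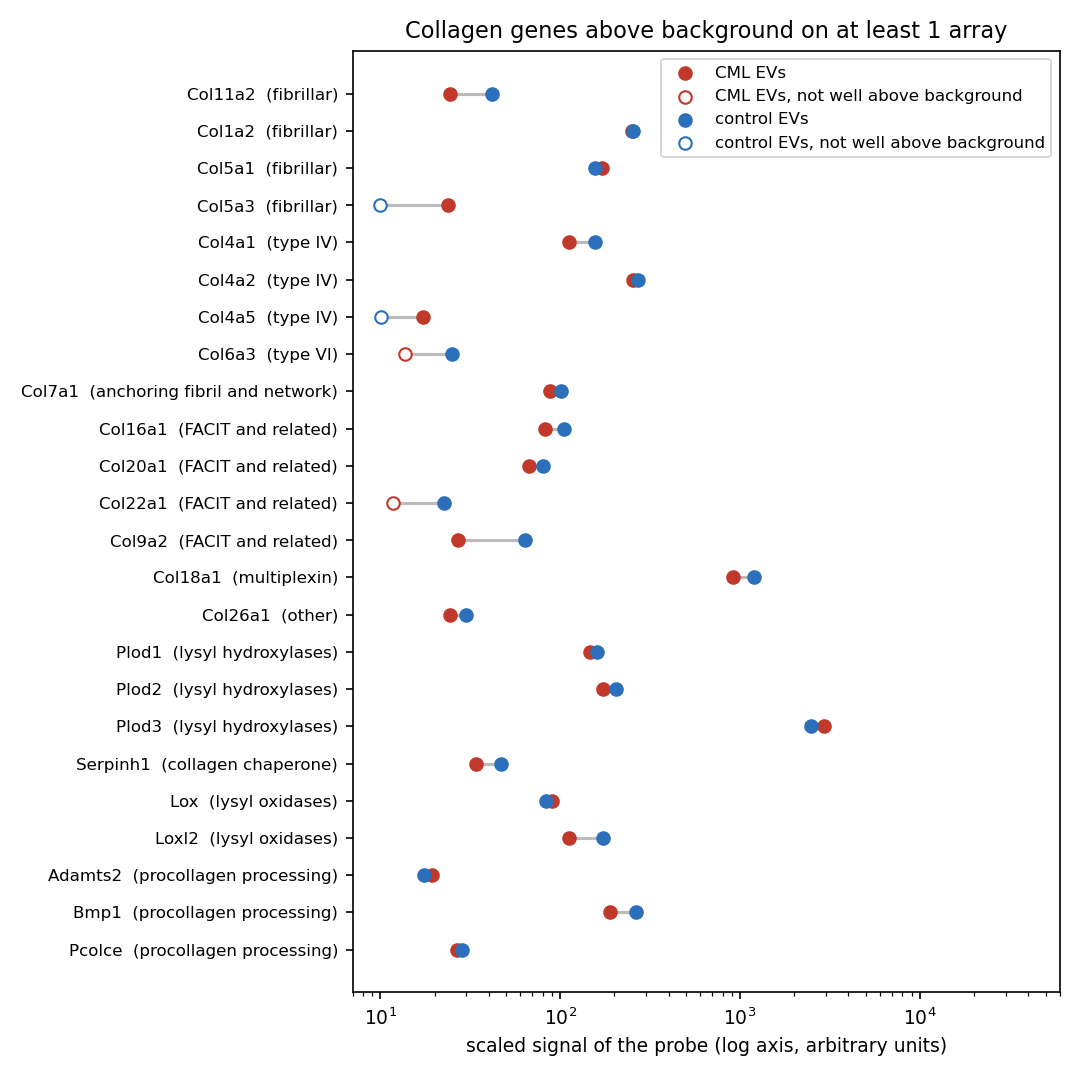
Scaled signal of the 24 genes above background on at least 1 array, log axis, CML EVs in red and control EVs in blue, with open points not well above background. Most red points lie left of the blue ones, with the largest gap among genes above background on both arrays at Col9a2 and the exceptions among them at Plod3, Col5a1, Lox and Adamts2.

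Of the 20 genes, 16 had a lower signal with CML EVs and 4 a higher one, and the median log2 ratio was -0.25 (range -1.23 to 0.25). Over all 13411 genes above background on both arrays, 48.1% were lower with CML EVs and the median was 0.01. The software error was exceeded by 11 of the 20 genes on the lower side, against 9.43% of all genes, and by 1 on the higher side, Plod3, against 9.33%. The CML EV signal was at most 0.8 times the control EV signal in 8 genes, against 5.25% of all genes. At least 1.5-fold lower were 3 genes (Col9a2, Col11a2 and Loxl2), against 1.18% of all genes, and at least 1.5-fold higher was 0, against 1.52% of all genes. With normexp correction, which here adds an offset of 50 to each signal, none of these 3 stayed at 1.5-fold. Since low collagen ratios on these arrays were known when the genes were chosen, nothing is read from these shares. The collagens had a median of -0.30 (10 lower, 1 higher) and the modifying genes of -0.13 (6 lower, 3 higher). The collagen median was -0.14 with normexp correction, and -0.080 over the 5 collagens with a mean signal of at least 100.

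The brightness of the probes bears on these ratios. Repeated spots gave a log2 ratio of a single spot an SD of 0.35 over 5 probes with a mean signal under 50, of 0.14 over 6 probes from 50 to 500, and of 0.05 over 272 brighter probes. Of all 1644 genes with a signal under 50, 6.57% were at least 1.5-fold lower and 5.72% at least 1.5-fold higher. From 50 to 500 these shares were 0.926% and 1.57% of 4211 genes, and from 500 upward 0.146% and 0.582% of 7556 genes. The 6 collagen and modifying genes under 50 included 2 of the 3 that were at least 1.5-fold lower, Col9a2 and Col11a2, and their median ratio was -0.38 with 5 of 6 ratios below 0, against a median of -0.06 and 57.1% below 0 over all genes in that range. The 12 genes from 50 to 500 had 10 ratios below 0 and a median of -0.23, against 55.3% below 0 and a median of -0.03 over all genes in that range. From 500 upward 1 of 2 genes, Col18a1, was below 0 and the median was -0.07, against 42.0% below 0 and a median of 0.02 over all genes there.

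**Figure D4:**
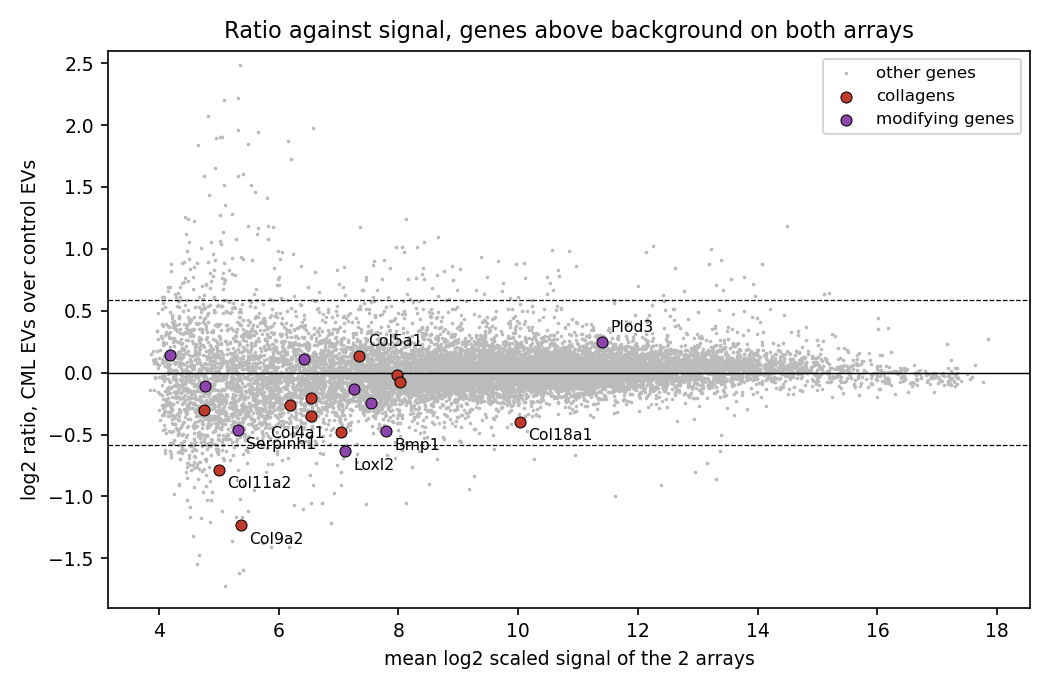
Ratio (log2, CML EVs over control EVs) plotted on the mean log2 signal of the 2 arrays, with 1 point for each of 13411 genes and dashed lines at 1.5-fold. The spread of all genes widens toward low signal, where Col9a2 and Col11a2 lie, and Plod3 and Col18a1 lie among bright genes at 0.25 and -0.39.

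Other genes of collagen biosynthesis, which were not on the list, had a median ratio of 0.11 (11 higher, 7 lower, of 24 with 18 above background on both arrays). This group held genes that act on many proteins, such as Hspa5, Hsp90b1, Pdia3, Pdia4 and Sec23a, all higher with CML EVs. Of these, the ratios of Hsp90b1 (0.13), Pdia3 (0.10) and Pdia4 (0.14) were within their software error of 0.20. Among the 7 lower were Ppib (-0.02) and Crtap (-0.10), also within that error. By size of ratio the leading members were the protease Adamts14, with 33.3 with CML EVs and 23.9 with control EVs (ratio 0.48), the tolloid protease Tll1, with 22.2 with CML EVs and 27.6 with control EVs (ratio -0.32), the lysyl oxidase Loxl3, with 21.4 with CML EVs and 26.1 with control EVs (ratio -0.29), and the prolyl hydroxylase subunit P4ha2, with 197 with CML EVs and 163 with control EVs (ratio 0.27). Of the collagen receptors, 6 of 10 were above background on both arrays, with a median of -0.04 (2 higher, 4 lower). The integrin chain Itga2 had 31.1 with CML EVs and 15.8 with control EVs, the latter near the floor (ratio 0.98, software error 0.40). The inhibitory receptor Lair1 had 827 with CML EVs and 645 with control EVs (ratio 0.36), while Itga10 and Gp6 had ratios of -0.09 and -0.06. Mrc2, which takes up collagen, had 7.32 with CML EVs, not well above background, and 43.7 with control EVs. This was 3.21-fold lower against the floor, with a software error of the log2 ratio of 0.64. Ddr1, with 13.1 with CML EVs and 19.9 with control EVs, was also above background with control EVs only. So was Ddr2, with 7.03 with CML EVs and 14.6 with control EVs. They were 1.46-fold and 1.07-fold lower against the floor, and the control EV signal of Ddr2 was near it. Above background with control EVs only were thus 3 of the 10 receptors, against 470 of all 22911 named genes. Enzymes that break down collagen and their inhibitors had a median of 0.05 (6 higher, 4 lower, of 13), with Timp3 at 2022 with CML EVs and 2441 with control EVs (ratio -0.27), Mmp2 at 25.7 with CML EVs and 21.5 with control EVs (ratio 0.26), and ratios of 0.16 for Ctsb and 0.15 for Ctsk. Other matrix genes, a list that also held Vim, which encodes a filament inside the cell, had a median of -0.05 (7 higher, 8 lower, of 26). Fbn1 had 13.6 with CML EVs, at the floor, and 26.9 with control EVs (ratio -0.98, software error 0.38). The ratios were -0.37 for Lamb2, -0.35 for Hspg2 and -0.35 for Lama5.

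Markers of the labeled cell type and of other cell types are given beside these values. All 16 stem and progenitor markers, Kit, Ly6a and Cd34 among them, were above background on both arrays, with a median of -0.10 (3 higher, 13 lower) and summed signals of 61153 with CML EVs and 66373 with control EVs. Of 15 fibroblast and stromal markers 6 were, with sums of 19946 with CML EVs and 17459 with control EVs and a median of -0.08. Of these 6, 2 were higher and 4 lower with CML EVs. The higher were Thy1, with 9431 with CML EVs and 7703 with control EVs, and Acta2, with 9393 with CML EVs and 8521 with control EVs. Thy1 and Acta2 make up most of those sums. The lower were Prrx1 (ratio -0.50), Tagln (-0.30), Lepr (-0.12) and Pdgfrb (-0.04). The other 9, Pdgfra, Cxcl12 and Dpt among them, were well above background on neither array. Of 12 endothelial markers 9 were above background on both arrays (2 higher, 7 lower), with a median of -0.13. Their sums were 20234 with CML EVs and 22255 with control EVs. Cdh5 and Cldn5 were above background on neither array. All 12 megakaryocyte markers, a type of cell that carries collagen receptors, were lower with CML EVs, with a median of -0.29 and sums of 82229 with CML EVs and 91529 with control EVs. Of 6 osteoblast markers 2 passed on both arrays, Runx2 and Spp1, with a median of 0.16 and sums of 11290 with CML EVs and 10011 with control EVs, and Sp7, Bglap, Ibsp and Alpl passed on neither. Of 10 macrophage markers 7 passed on both arrays (5 higher, 2 lower), with a median of 0.05. Their sums were 19653 with CML EVs and 18840 with control EVs. Vcam1 had the highest ratio of them, 1.17, with 247 with CML EVs and 110 with control EVs. The 2 lower were Mrc1, with 624 with CML EVs and 787 with control EVs (ratio -0.34, software error 0.20), and C1qb (ratio -0.19, software error 0.26). Marco passed with control EVs only. All 7 mast cell markers on the arrays passed on both (4 higher, 3 lower), with a median of 0.03. Their sums were 19002 with CML EVs and 18158 with control EVs. Some genes, Vwf and Gp6 among them, stand on 2 of the lists used here. What part these cells have in the collagen ratios was not tested.

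**Figure D5:**
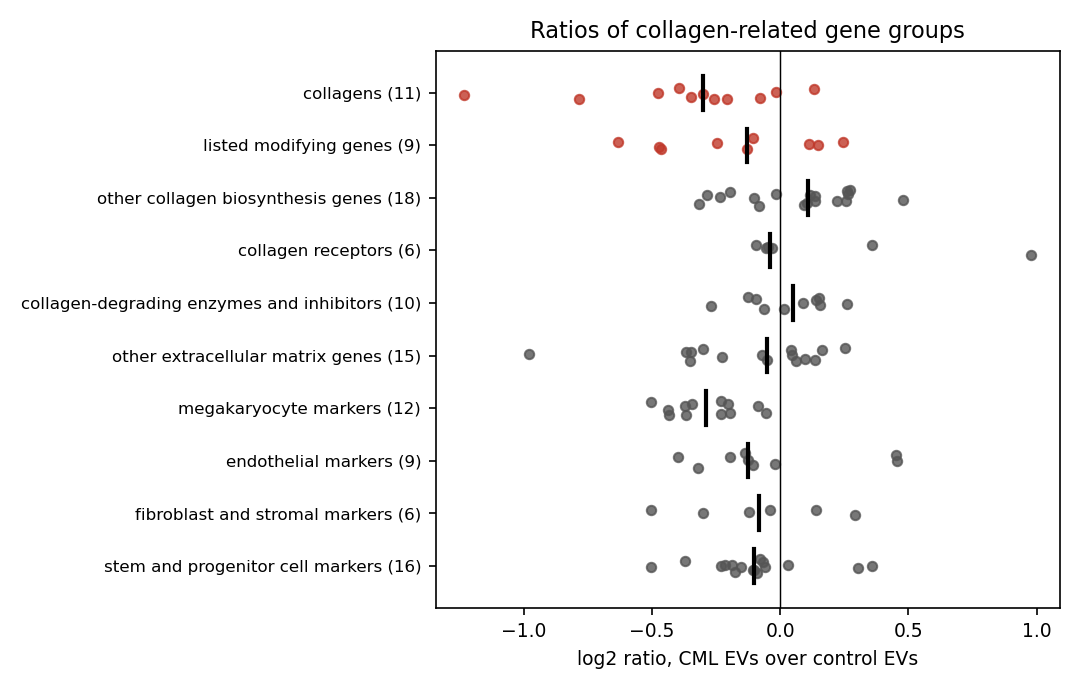
Ratio (log2, CML EVs over control EVs) of genes above background on both arrays, by group with the number of genes in brackets, 1 point per gene and a bar at the median. At the settings plotted the medians are -0.30 for the collagens, -0.29 for the megakaryocyte markers and 0.11 for the other collagen biosynthesis genes. With normexp correction these 3 are -0.14, -0.24 and 0.10. The biosynthesis group includes genes that act on many proteins.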

How the data were processed

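Expression was measured on 2 one-color Agilent mouse arrays (SurePrint G3 Mouse v2 8x60K), 1 per condition, on the same slide and scan. The deposited scanner files hold, per the file headers, a background-subtracted intensity and quality flags for each spot (the submitters' processing notes name Agilent Feature Extraction 12.0.3.1). The authors' deposited value table holds that intensity times 1 factor per array, which was 0.947 for CML EVs and 0.942 for control EVs, with no log taken. The other deposited columns used are flags for spots well above background, outliers and saturation, and of 59305 spots per array 31635 (53.3%) with CML EVs and 32269 (54.4%) with control EVs were well above background and 0 were saturated.

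Here control spots and outliers (88 with CML EVs and 95 with control EVs) were dropped. As the methods describe, signals were scaled so that the mean of an array without its upper and lower 2% of spots was 2500. Repeated spots were then averaged here on the log2 scale. RefSeq accessions gave symbols for 32994 probes (GRCm38.p6 gene table), and 23610 probes without one entered no count. A gene was represented by its probe with the highest value with CML EVs. Ratios are log2 CML EVs minus control EVs. The calculations were tested on simulated data. Precision is limited by the number of arrays, and without replicates nothing was tested across samples. The genes, lists and comparisons were chosen with earlier results of these data known. The genes named with values by rule are the collagens and modifying genes that passed on at least 1 array. Of each other list that is not a marker list, they are the 4 above background on both arrays with the largest absolute ratio. Values are also given for Col1a1, for some further receptor and biosynthesis genes and for some markers, chosen with the results known. The marker lists are given mainly by their counts, medians and sums. Alternatives covered scaling, background correction (normexp with an offset of 50, limma 3.58.1, R 4.3.3), probe choice, filters, a loess fit (statsmodels 0.14.6) and the fold threshold. Python 3.11.15, numpy 2.4.6 and pandas 2.3.3 were used.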

Additional observations from a re-analysis of the deposited data

How the results depend on the processing

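No paired analysis was possible because there was 1 array for each condition, and for the same reason no replicate could be left out. Saturated spots could not be varied because there were 0. The collagen median of -0.30 became -0.14 with normexp background correction and -0.080 with a mean signal of at least 100. With that filter the genes lower and higher numbered 8 and 2. Of genes at least 1.5-fold lower, normexp left 0, the filter at 100 left 1, and the inclusion of genes above background on at least 1 array gave 5. A threshold of 0.8 times the control EV signal gave 8, against 5.25% of all genes, and one of 2-fold gave 1. Genes at least 1.5-fold higher became 2 on at least 1 array. Except at 0.8, shares over all genes under these alternatives are not given, so nothing is read from the counts. With the flag for a signal positive and significant against background in place of well above background, 60.7% of the genes passed, against 69.0% of all named genes, and 49.4% of the probes, against 70.3% of all named probes. Of 210 values of the 20 genes under the alternatives, 205 moved by less than the error, and 5 moved: Bmp1 to -0.22 with the mean of its probes, and with normexp Col11a2 to -0.31, Col9a2 to -0.47, Loxl2 to -0.39 and Serpinh1 to -0.12. The sign held in every alternative run for 18 genes, and it changed for Col1a2 and Adamts2. Normexp was run with an offset of 50 added to each corrected signal, which by arithmetic shrinks the ratios of dim probes most. The share of the offset in these shifts, or any other cause, was not tested. Normexp and the filters act on dim probes, and 6 of the 20 genes had a mean signal under 50.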
